A study of Homo sapiens with 27 samples.

Results

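The 10 genes described here, of polyamine synthesis and the methionine cycle, were followed through CPSF1 knockdown in 3 prostate cancer cell lines. The set was ODC1, AMD1, SRM, SMS, SAT1, OAZ1, AZIN1, MTAP, MAT2A and NNMT, taken by symbol, and all 10 were found among the 20268 genes of the count table. They were chosen by name because polyamine synthesis is high in prostate cells and MAT2A mRNA is controlled by RNA processing, except for NNMT, which was selected on its strong rise with CPSF1 knockdown in 22Rv1 cells. The NNMT values in 22Rv1 cells are therefore given as a description, with no test. Total RNA had been sequenced as poly(A)-selected, stranded libraries from the hormone-sensitive line LNCaP and the hormone-insensitive lines LNCaP95 and 22Rv1. Each line had been transduced with lentivirus encoding a control hairpin (CTRL sh) or a hairpin that targets CPSF1, of which there were 2 (named CPSF1 sh1 and CPSF1 sh2), selected with puromycin and grown as stable pools, so that the control cells carried a hairpin vector too. LNCaP and 22Rv1 cells were kept in RPMI medium with serum and LNCaP95 cells in the phenol red free form of that medium, so for LNCaP95 cells line and medium cannot be told apart. The 9 groups held 3 biological replicates each, which makes 27 libraries.

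Polyamines (putrescine, spermidine and spermine) are small cations that bind nucleic acids, and the prostate epithelium makes and secretes them in large amounts. ODC1 turns ornithine into putrescine, AMD1 decarboxylates S-adenosylmethionine, SRM and SMS add the aminopropyl groups that give spermidine and spermine, SAT1 acetylates both for export or breakdown, OAZ1 (antizyme) sends ODC1 to the proteasome and AZIN1 blocks antizyme. MTAP recycles the methylthioadenosine that SRM and SMS release, MAT2A makes S-adenosylmethionine from methionine, and NNMT spends it to methylate nicotinamide. CPSF1 is the large subunit of the cleavage and polyadenylation specificity factor, the complex that reads the AAUAAA hexamer upstream of the mRNA cleavage site.

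The hexamers of the set are printed because they are the signal that this complex reads. The last 50 bases of the canonical transcript of each gene (GENCODE v44lift37 models on GRCh37) were searched on the transcribed strand for AATAAA and then for ATTAAA, and a hit is a match of letters, not a measured cleavage site. AATAAA was found in 6 of the 10 genes, ATTAAA alone in 2 (SMS and MTAP) and neither in 2 (SRM and AZIN1). Among 17599 genes searched in the same way, 65.5% held AATAAA, 14.4% held ATTAAA alone and 20.2% held neither. The windows run 5′ to 3′ on the transcribed strand with the last match in capitals (the NNMT window holds earlier, overlapping AATAAA matches too), and the NNMT window lies beyond the end of the NNMT model used for counting. The SMS and MTAP windows lie well upstream of the ends of their models used for counting, at 22025798 and 21931646.
ODC1, chr2:10580103-10580132, minus strand: tcagcttattttAATAAAttcagcaacagc
AMD1, chr6:111216871-111216900, plus strand: aatttacgcttcAATAAAagtttaattgtc
SMS, chrX:22012923-22012952, plus strand: aggattgcttcaATTAAAattacaaaagag
SAT1, chrX:23804294-23804323, plus strand: tgattcttttttAATAAActactctttgat
OAZ1, chr19:2273456-2273485, plus strand: tctccaaaagccAATAAAgtgattacaccc
MTAP, chr9:21867047-21867076, plus strand: ttctgtaatcttATTAAAttcacttagttc
MAT2A, chr2:85772367-85772396, plus strand: aatgaagatctaAATAAAatgctaggttct
NNMT, chr11:114184222-114184251, plus strand: taaataaaataaAATAAAgtgaattgttac

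The libraries held 8515624 to 15904518 counts on genes, with a median of 11058723. CPSF1 mRNA, the target, was 151 ± 1.04 CPM with CTRL sh (counts per 1000000, with library sizes scaled by TMM within a line; SD, n = 3) against 96.2 ± 7.95 with CPSF1 sh (n = 6) in LNCaP, 114 ± 15.5 against 61.4 ± 4.13 in LNCaP95 and 184 ± 3.77 against 130.4 ± 10.9 in the 22Rv1 line. The sum of 8 luminal prostate markers, the defining genes of the labelled tissue, normalised over all 27 libraries, was 5050 to 5140 CPM with CTRL sh and 4020 to 4310 with CPSF1 sh in LNCaP, 5680 to 5870 and 4250 to 4450 in LNCaP95, and 2960 to 2990 and 2810 to 3120 in the 22Rv1 line. Of a pair of leukocyte markers, PTPRC had at most 3 counts in any library, while CD68 carried a sum that went from 3.06 to 3.69 CPM with CTRL sh to 10.3 to 17.9 with CPSF1 sh in LNCaP, from 6.53 to 9.65 to 16.2 to 33.6 in LNCaP95 and from 0.937 to 1.62 to 1.81 to 7.02 in the 22Rv1 line. Basal epithelial markers, a sum of 3 carried by KRT14, went from 1.29 to 2.16 CPM to 3.85 to 6.33 in LNCaP without overlap, from 1.67 to 3.09 to 2.43 to 5.87 in LNCaP95, and were at most 0.465 in 22Rv1 libraries, while TP63 had at most 4 counts and KRT5 at most 2 in any library. The part of CD68 and KRT14 in the results was not tested.

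In the control libraries, OAZ1, AMD1 and ODC1 were the highest members in each line, and NNMT was the lowest. Levels of different genes are compared here as CPM per kilobase of exon. The length takes in all exons of the model used for counting, 7866 bases for MTAP and 5677 for AZIN1. Where a model holds more exon than the transcripts in use, the level reads low, and this was not tested. In LNCaP cells the order was OAZ1 (345 ± 7.11; SD, n = 3), AMD1 (271 ± 9.59), ODC1 (184 ± 4.48), MAT2A (119 ± 4.83), SRM (96.03 ± 2.73), SAT1 (69.9 ± 2.46), AZIN1 (46.4 ± 1.35), SMS (45.8 ± 1.19), MTAP (6.69 ± 0.359) and NNMT (0.859 ± 0.192). The ranges of AZIN1 and SMS overlapped. In LNCaP95 cells AMD1 led with 356 ± 5.12 CPM per kilobase, ahead of OAZ1 with 315 ± 10.6 and ODC1 with 135 ± 5.24. SRM (105 ± 6.55) and SMS (101 ± 2.25) overlapped there, as did MAT2A (77.8 ± 7.09) and SAT1 (69.8 ± 3.28), followed by AZIN1 (45.4 ± 0.666), MTAP (3.63 ± 0.3) and NNMT (0.415 ± 0.0375). In 22Rv1 cells no ranges overlapped between neighbours, and the order ran from OAZ1 (301 ± 10.4) through AMD1 (167 ± 7.84), ODC1 (142 ± 1.95), MAT2A (94.003 ± 3.45), SRM (74.5 ± 1.48), AZIN1 (57.8 ± 1.04), SMS (30.9 ± 1.01), SAT1 (14.2 ± 1.06) and MTAP (6.61 ± 0.456) to NNMT (0.947 ± 0.158).

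**Figure D1:**
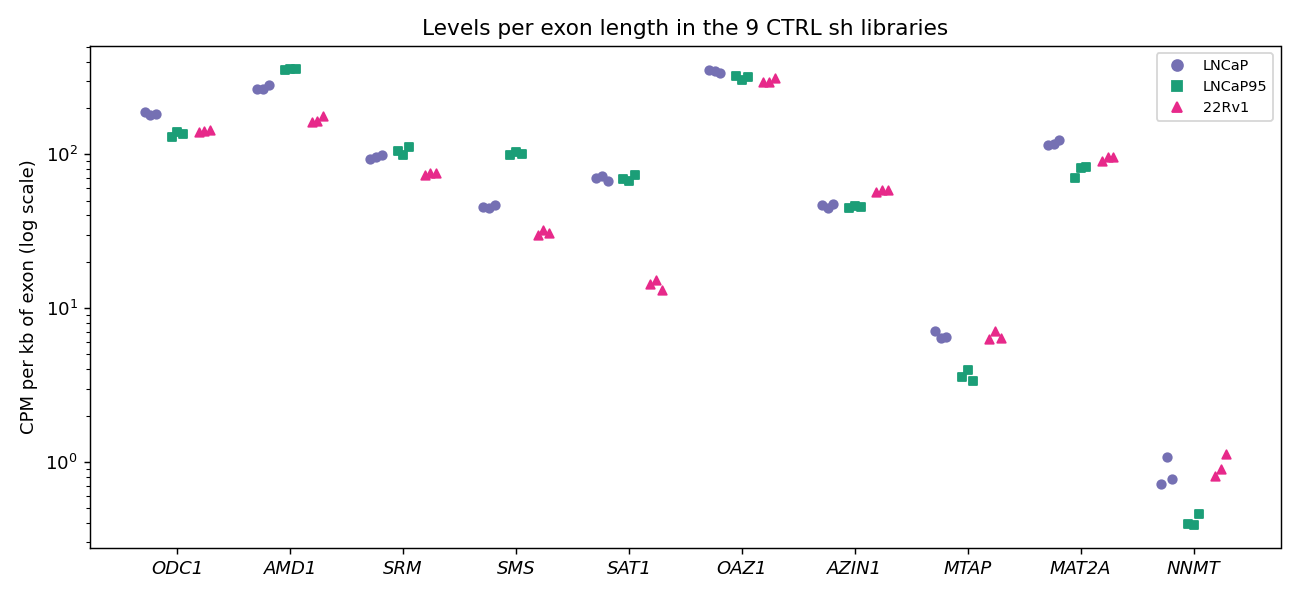
Levels of the 10 genes in the 9 CTRL sh libraries, in CPM per kilobase of exon on a log axis (TMM over 27 libraries), with 1 point per library. SAT1 stands at 69.9 and 69.8 in LNCaP and LNCaP95 cells and at 14.2 in 22Rv1 cells, SMS stands highest in LNCaP95 cells, and NNMT is the lowest gene in each line.

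Spermine synthase and the acetylase SAT1 set the lines apart without knockdown. In an edgeR quasi-likelihood test of the CTRL sh libraries over 10477 genes, SMS was higher in LNCaP95 than in LNCaP cells (log2 difference 1.12, SE 0.041, adjusted p = 2.14e-17) and lower in 22Rv1 than in LNCaP95 cells (log2 difference -1.64, SE 0.043, adjusted p = 1.03e-20). SAT1 was lower in 22Rv1 than in LNCaP cells (log2 difference -2.25, SE 0.058, adjusted p = 9.77e-21), while LNCaP95 and LNCaP cells differed by -0.020 (log2, SE 0.047, adjusted p = 0.706). AMD1 was lower in 22Rv1 than in LNCaP95 cells (log2 difference -1.04, SE 0.040, adjusted p = 2.37e-17), and MTAP was lower in LNCaP95 than in LNCaP cells (log2 difference -0.90, SE 0.071, adjusted p = 4.32e-11). Of the 9 members other than NNMT, 7 differed between LNCaP95 and LNCaP cells, 8 between 22Rv1 and LNCaP and 8 between 22Rv1 and LNCaP95, where 80.5%, 82.7% and 84.5% of all genes differed, so the counts are near those of genes at large. The SRM difference between LNCaP95 and LNCaP cells, 0.11 (log2, SE 0.046, adjusted p = 0.0287), missed the threshold without CTRL sh replicate 1 of LNCaP (adjusted p = 0.105) or replicate 3 of LNCaP95 cells (adjusted p = 0.217), and with library size alone (0.0731). NNMT failed the filter of this fit. In the fit with the looser filterByExpr filter of edgeR, in which 75.7% of genes differed, NNMT was lower in LNCaP95 than in LNCaP cells (log2 difference -1.07, SE 0.27, adjusted p = 0.000774).

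With CPSF1 sh, the synthesis and control genes moved in both directions, and LNCaP95 cells differed most from the other two lines. SRM and SMS rose together in LNCaP cells, SRM and ODC1 rose while AMD1 and SAT1 fell in LNCaP95 cells, and none of the 9 values in 22Rv1 cells exceeded 0.24 on the log2 scale. In each line, 3 CTRL sh libraries were compared with 6 CPSF1 sh libraries by the edgeR quasi-likelihood test, adjusted over all genes above 2 CPM in all 9 libraries. In LNCaP cells 5 of the 9 members other than NNMT were higher and 1 was lower, where 31.1% of all genes were higher and 31% lower. In LNCaP95 cells 4 were higher and 4 lower against 33.2% and 33.7% of all genes, and in 22Rv1 cells 2 were higher and 1 lower against 12.7% and 14.3%. The shares in LNCaP and 22Rv1 cells (6 and 3 of 9) are near those of all genes (62.1% and 26.9%), and the 8 of 9 in LNCaP95 cells stand beside 66.9%. The median log2 change of the 9 members was 0.143 in LNCaP, -0.0834 in LNCaP95 and 0.0924 in the 22Rv1 line, beside -0.00036, 0.00129 and -0.00235 over all genes. Scaling by library size alone moved the median of all genes in LNCaP95 cells by 0.087 and the split there from 3694 higher and 3756 lower to 4685 and 2850. In these fits none of the 9 members passed the test in the same direction in all 3 lines, while SRM did so under the alternatives given with its values. With CPSF1 sh2 alone, AMD1 (lower) and ODC1 (higher) also did so. The libraries of the 2 arms did not overlap for 5 of the 9 members in LNCaP, 7 in LNCaP95 and 4 in the 22Rv1 line, against 55.6%, 60% and 28.2% of all genes. In bulk RNA, fewer cells that express a gene and less of its RNA per cell cannot be told apart.

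**Figure D2:**
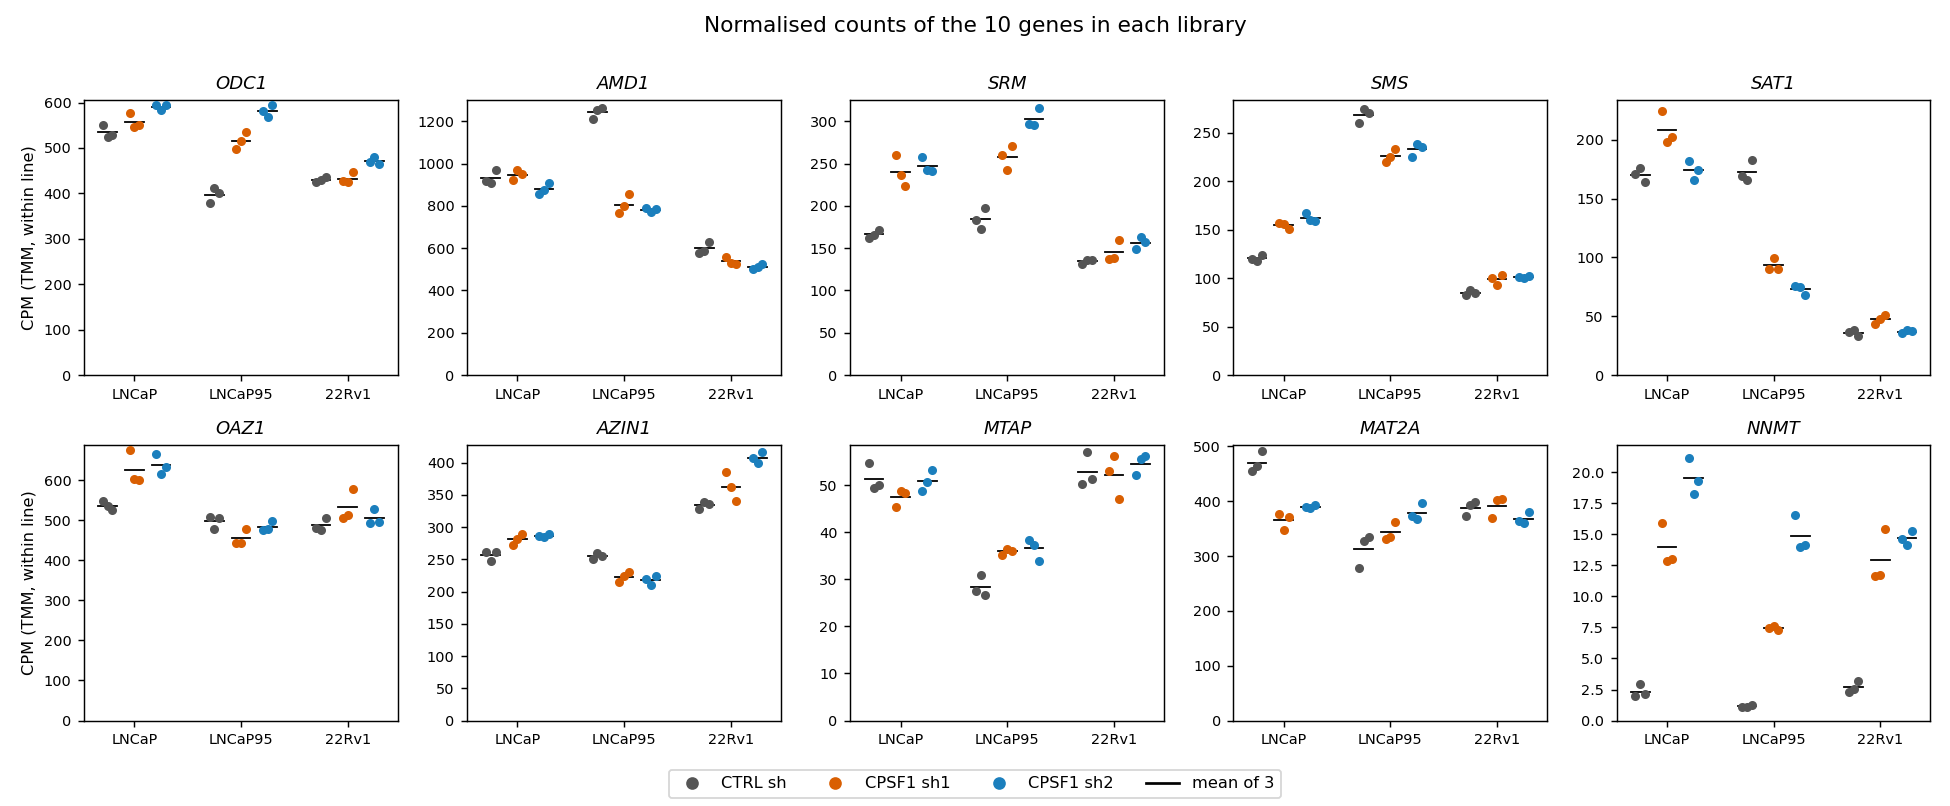
Normalised counts (CPM, TMM within a line, linear axis from 0) of the 10 genes in each of the 27 libraries, 1 point per library and a bar at the mean of 3. The CPSF1 sh points of SAT1 and AMD1 lie below the CTRL sh points in LNCaP95 cells, those of SRM lie above them in each line, and those of NNMT lie far above them in each line.

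ODC1 (chromosome 2 from 10580094 to 10588630, minus strand, GRCh37), the first and rate-limiting step, was highest with CPSF1 sh2 in each line. In LNCaP95 cells its levels were 379, 413 and 401 CPM with CTRL sh, 498, 516 and 534 with CPSF1 sh1 and 581, 568 and 594 with CPSF1 sh2, and the arms did not overlap. The change there was 0.46 (log2, SE 0.061, adjusted p = 2.55e-05). In LNCaP cells the levels were 550.1, 524 and 529 CPM with CTRL sh, 576, 546 and 551 with CPSF1 sh1 and 594, 584 and 595 with CPSF1 sh2, with the lowest CPSF1 sh1 library inside the control range. That change was 0.10 (log2, SE 0.037, adjusted p = 0.0233), and it missed the threshold without CTRL sh replicate 2 (adjusted p = 0.104) or 3 (0.0842), or without CPSF1 sh2 replicate 2 (0.0586) or 3 (0.0662), with no filter (0.0985) and with CPSF1 sh1 alone (0.177). In 22Rv1 cells ODC1 went from 424, 429.9 and 435 CPM to 426, 425 and 447 with CPSF1 sh1 and 468, 480.2 and 464 with CPSF1 sh2, a change of 0.072 (log2, SE 0.045, adjusted p = 0.247). With CPSF1 sh2 alone it was 0.13 and passed (adjusted p = 0.000728).

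AMD1 (chromosome 6 from 111195973 to 111216916, plus strand), which supplies the aminopropyl donor, fell in LNCaP95 and 22Rv1 cells. In LNCaP95 cells it was 1212, 1252 and 1264 CPM with CTRL sh, 766, 799 and 856 with CPSF1 sh1 and 790.0, 771 and 788 with CPSF1 sh2, so that each knockdown library lay well below each control. The change was -0.65 (log2, SE 0.043, adjusted p = 1.63e-07). In 22Rv1 cells the levels were 579, 587 and 631 CPM with CTRL sh, 560.3, 528 and 524 with CPSF1 sh1 and 501, 511 and 525 with CPSF1 sh2, again without overlap, and the change was -0.19 (log2, SE 0.042, adjusted p = 0.00422). In LNCaP cells the arms overlapped, at 920.0, 910.0 and 970.0 CPM with CTRL sh, 922, 972 and 952 with CPSF1 sh1 and 855, 877 and 907 with CPSF1 sh2, with a value of -0.030 (log2, SE 0.042, adjusted p = 0.549). With CPSF1 sh2 alone it was -0.085 and passed (adjusted p = 0.0354).

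SRM (chromosome 1 from 11114646 to 11120081, minus strand), spermidine synthase, was above the controls in each CPSF1 sh library of each line. In LNCaP cells it went from 162, 166 and 171 CPM to 259.8, 237 and 223 with CPSF1 sh1 and 258, 243 and 241 with CPSF1 sh2, a change of 0.55 (log2, SE 0.047, adjusted p = 1.52e-07). In LNCaP95 cells the levels were 184, 173 and 197 CPM with CTRL sh, 260.5, 242 and 271 with CPSF1 sh1 and 296, 295 and 316 with CPSF1 sh2, and the change was 0.60 (log2, SE 0.079, adjusted p = 2.67e-05). The 22Rv1 levels of 131, 136 and 136 CPM with CTRL sh, 137, 138 and 159.7 with CPSF1 sh1 and 149, 163 and 157 with CPSF1 sh2 were closer together. There the value of 0.16 (log2, SE 0.059, adjusted p = 0.0547) missed the threshold, and it passed with library size alone (adjusted p = 0.0419), with DESeq2 (0.0459), with the hairpins as separate groups (0.0216), with CPSF1 sh2 alone (0.21, adjusted p = 4.41e-05) and when any 1 CPSF1 sh1 library was left out (0.0227 to 0.0427).

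SMS (chromosome X from 21958691 to 22025798, plus strand), spermine synthase, rose in LNCaP and 22Rv1 cells and fell in LNCaP95 cells, the line where it started highest. In LNCaP cells it was 120.0, 118 and 124 CPM with CTRL sh, 157, 156 and 151 with CPSF1 sh1 and 168, 161 and 159 with CPSF1 sh2, a change of 0.40 (log2, SE 0.039, adjusted p = 6.4e-07). In 22Rv1 cells the levels were 82.2, 87.6 and 84.6 CPM with CTRL sh, 100.2, 93.1 and 103 with CPSF1 sh1 and 101, 100.3 and 103 with CPSF1 sh2, with 0.24 (log2, SE 0.048, adjusted p = 0.0025). The LNCaP95 levels went the other way, from 260.3, 275 and 271 CPM with CTRL sh, 220.1, 225 and 234 with CPSF1 sh1 and 225, 239 and 236 with CPSF1 sh2, with -0.22 (log2, SE 0.041, adjusted p = 0.000381). The arms did not overlap in any of the 3 lines.

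SAT1 (chromosome X from 23801290 to 23804343, plus strand), the acetylase that opens polyamine breakdown and export, fell to less than the level of any control in LNCaP95 cells. Its levels there were 169, 166 and 183 CPM with CTRL sh, 90.2, 99.6 and 89.995 with CPSF1 sh1 and 75.4, 75.01 and 67.9 with CPSF1 sh2, a change of -1.05 (log2, SE 0.097, adjusted p = 1.77e-06), the largest among the 9 members in any line. In LNCaP cells the levels were 171, 176 and 164 CPM with CTRL sh, 225, 198 and 203 with CPSF1 sh1 and 182, 166 and 174 with CPSF1 sh2, and in 22Rv1 cells 36.7, 38.5 and 33.2 CPM with CTRL sh, 43.5, 47.4 and 51.3 with CPSF1 sh1 and 35.5, 38.3 and 37.2 with CPSF1 sh2. In both of these lines CPSF1 sh1 lay above the controls and CPSF1 sh2 overlapped them. The pooled values were 0.16 (log2, SE 0.074, adjusted p = 0.0697) in LNCaP and 0.22 (log2, SE 0.11, adjusted p = 0.144) in 22Rv1 cells, and with the hairpins as separate groups the adjusted p was 0.00188 and 0.0218. With CPSF1 sh1 alone both passed, at 0.28 (adjusted p = 2.03e-05) in LNCaP and 0.39 (adjusted p = 0.00536) in 22Rv1 cells. The LNCaP value also passed without CPSF1 sh2 replicate 2 (adjusted p = 0.021) or 3 (0.0445).

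The antizyme OAZ1 (chromosome 19 from 2269485 to 2273487, plus strand) and its inhibitor AZIN1 (chromosome 8 from 103838585 to 103906092, minus strand) moved by smaller amounts. OAZ1 rose in LNCaP cells, from 548, 536 and 524 CPM to 675, 602 and 601 with CPSF1 sh1 and 665, 615 and 633 with CPSF1 sh2 (log2 difference 0.24, SE 0.042, adjusted p = 0.00018). In LNCaP95 cells its value was -0.083 (log2, SE 0.047, adjusted p = 0.131) with TMM and 0.0030 with library size alone, and it passed the test, as a fall, with filterByExpr (adjusted p = 0.0279), with no filter (0.0218), with the hairpins as separate groups (0.0383) and with CPSF1 sh1 alone (0.0226). In 22Rv1 cells it was 0.092 (log2, SE 0.050, adjusted p = 0.188). AZIN1 rose in LNCaP and 22Rv1 cells and fell in LNCaP95 cells, as SMS did. Its levels were 251, 259.9 and 256 CPM with CTRL sh, 214, 224 and 229.8 with CPSF1 sh1 and 219, 211 and 225 with CPSF1 sh2 in LNCaP95 cells, with -0.21 (log2, SE 0.040, adjusted p = 0.00051). In LNCaP cells they were 262, 248 and 261 CPM with CTRL sh, 272, 281 and 289 with CPSF1 sh1 and 287, 284 and 289 with CPSF1 sh2, with 0.14 (log2, SE 0.033, adjusted p = 0.00164). The arms of AZIN1 were apart in each line, the 22Rv1 levels being 327, 338 and 336 CPM with CTRL sh, 385, 362 and 341 with CPSF1 sh1 and 406, 399 and 417 with CPSF1 sh2. The 22Rv1 change was 0.21 (log2, SE 0.057, adjusted p = 0.0159) and missed the threshold without CTRL sh replicate 1 (adjusted p = 0.0773) or 3 (0.0545), and with CPSF1 sh1 alone (0.109).

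MTAP (chromosome 9 from 21802542 to 21931646, plus strand), the salvage enzyme, rose in LNCaP95 cells, the line with the least of it. Its levels there were 27.4, 30.9 and 26.6 CPM with CTRL sh, 35.3, 36.5 and 36.04 with CPSF1 sh1 and 38.4, 37.4 and 33.99 with CPSF1 sh2, without overlap, and the change was 0.36 (log2, SE 0.067, adjusted p = 0.000435). In LNCaP and 22Rv1 cells the values were -0.057 (log2, SE 0.056, adjusted p = 0.384) and 0.014 (log2, SE 0.066, adjusted p = 0.896), and the arms overlapped. A gene model that overlaps MTAP on the same strand, RP11-145E5.5, had at most 7 counts in any library, and how reads on shared exons were counted is not given in the sources used here.

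MAT2A (chromosome 2 from 85766288 to 85772403, plus strand), the S-adenosylmethionine synthase, fell in LNCaP cells. It was 456, 464 and 491 CPM with CTRL sh, 376, 348 and 372 with CPSF1 sh1 and 389, 388 and 394 with CPSF1 sh2, each knockdown library being below each control, and the change was -0.32 (log2, SE 0.041, adjusted p = 9.77e-06). In LNCaP95 cells it was 278, 327 and 335 CPM with CTRL sh, 332, 335 and 363 with CPSF1 sh1 and 373, 367 and 396 with CPSF1 sh2, with 0.21 (log2, SE 0.069, adjusted p = 0.0185). The arms overlapped there, and the rise rested on the low CTRL sh replicate 1, without which the change was 0.13 (adjusted p = 0.132). It also missed the threshold with no filter (adjusted p = 0.0517). In 22Rv1 cells the arms overlapped, at 372, 394 and 399 CPM with CTRL sh, 369.8, 403 and 403 with CPSF1 sh1 and 365, 359.9 and 381 with CPSF1 sh2, with -0.029 (log2, SE 0.046, adjusted p = 0.673). The list of pathway genes holds 2 that are known to act on MAT2A mRNA. METTL16, the methyltransferase that modifies its hairpins, fell in LNCaP95 cells (log2 difference -0.29, SE 0.049, adjusted p = 0.000203), with -0.049 (log2, SE 0.041, adjusted p = 0.31) in LNCaP and 0.011 (log2, SE 0.082, adjusted p = 0.935) in 22Rv1 cells. YTHDC1, the nuclear reader of that mark, fell in LNCaP95 cells (log2 difference -0.52, SE 0.040, adjusted p = 5.05e-07) and in LNCaP cells (log2 difference -0.10, SE 0.040, adjusted p = 0.0321), and was at 0.073 (log2, SE 0.049, adjusted p = 0.295) in 22Rv1 cells.

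**Figure D3:**
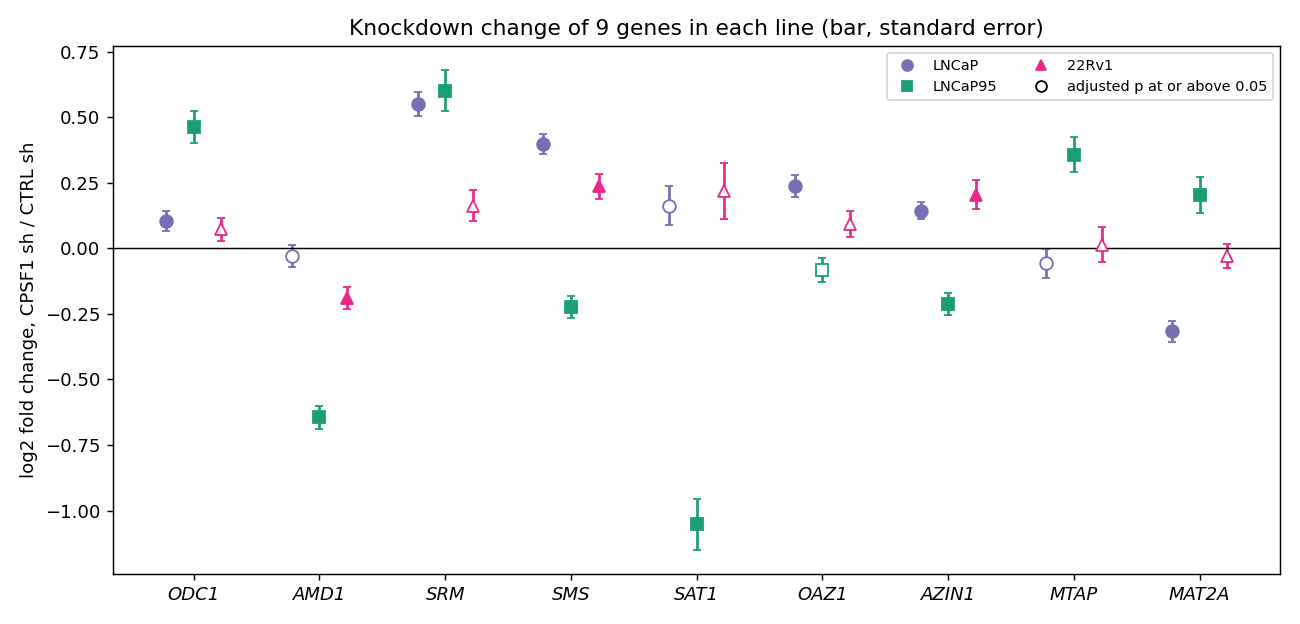
Log2 change with CPSF1 sh against CTRL sh for 9 genes in the 3 lines, with the standard error as bars and open points where the adjusted p is at or above 0.05. SAT1 at -1.05 and AMD1 at -0.65 in LNCaP95 cells stand below the values of the other lines, and SRM at 0.55 and 0.60 is the highest gene in LNCaP and LNCaP95 cells.

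NNMT (chromosome 11 from 114128509 to 114184007, plus strand), nicotinamide N-methyltransferase, was at low counts with CTRL sh and several-fold higher in every CPSF1 sh library. In 22Rv1 cells, on which it was chosen, the counts were 28, 28 and 30 with CTRL sh, 126, 123 and 158 with CPSF1 sh1 and 162, 135 and 165 with CPSF1 sh2, or 2.31, 2.57 and 3.17 CPM with CTRL sh, 11.6, 11.7 and 15.4 with CPSF1 sh1 and 14.6, 14.1 and 15.3 with CPSF1 sh2, and the fitted change was 2.37. In LNCaP cells the counts were 21, 35 and 24 with CTRL sh, 133, 143 and 134 with CPSF1 sh1 and 239, 249 and 232 with CPSF1 sh2. These are 1.97, 2.93 and 2.105 CPM with CTRL sh, 15.9, 12.9 and 13.05 with CPSF1 sh1 and 21.2, 18.3 and 19.3 with CPSF1 sh2, the highest levels of the gene in the series being those with CPSF1 sh2. In LNCaP95 cells the counts were 15, 12 and 13, then 122, 112 and 94, then 178, 170 and 156, or 1.09, 1.08 and 1.27 CPM with CTRL sh, 7.46, 7.65 and 7.26 with CPSF1 sh1 and 16.5, 13.997 and 14.2 with CPSF1 sh2. NNMT was above 2 CPM in 8 of 9 LNCaP libraries (lowest 1.97) and in 6 of 9 LNCaP95 libraries (lowest 1.04, without TMM), so in these lines it fell outside the main fit, and the libraries below the limit were controls. The filterByExpr fits, whose limits of 0.88 and 0.832 CPM all of its libraries exceeded, gave 2.82 (log2, SE 0.21, adjusted p = 5.76e-08) in LNCaP and 3.22 (log2, SE 0.39, adjusted p = 1.38e-05) in LNCaP95 cells, where 31% and 33.3% of all genes were higher. The difference between these changes was 0.40 (log2, SE 0.49, adjusted p = 0.548). NNMT is also made by fibroblasts, and the sum of 3 fibroblast markers was 26.7 to 31.9 CPM with CTRL sh and 17.9 to 20.8 with CPSF1 sh in LNCaP, 56.7 to 74.4 and 43.4 to 58.6 in LNCaP95, and 12.4 to 15.6 and 12.5 to 16.7 in the 22Rv1 line. COL1A1 carried the sum. COL3A1 taken alone was higher with CPSF1 sh in LNCaP95 cells, where it had 0.192 ± 0.0998 CPM with CTRL sh, 0.643 ± 0.0804 with CPSF1 sh1 and 1.72 ± 0.217 with CPSF1 sh2, the order that NNMT has, and 1 to 21 counts per library. In 22Rv1 cells its levels were 1.17 ± 0.479, 1.52 ± 0.369 and 2.49 ± 0.479 CPM, and in LNCaP cells 4.69 ± 0.417, 4.73 ± 0.36 and 4.07 ± 0.172. DCN had no counts in LNCaP and LNCaP95 libraries, and 6 to 14 counts in 22Rv1 libraries both with CTRL sh and with CPSF1 sh. These values were not tested, nor was their part in the NNMT result.

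ZBTB16, a zinc finger transcription factor gene, ends 7.1 kb upstream of NNMT on the same strand, and the next gene downstream, RBM7, starts 86.7 kb away. ZBTB16 fell in LNCaP95 and 22Rv1 cells. It was 51.9, 40.8 and 44.02 CPM with CTRL sh, 21.9, 23.99 and 21.5 with CPSF1 sh1 and 25.003, 26.9 and 23.6 with CPSF1 sh2 in LNCaP95 cells, a change of -0.94 (log2, SE 0.087, adjusted p = 1.86e-06). In 22Rv1 cells it fell (log2 difference -0.54, SE 0.069, adjusted p = 0.000114), and in LNCaP cells it was at 0.12 (log2, SE 0.097, adjusted p = 0.295), with CPSF1 sh1 alone at 0.22 (log2, SE 0.092, adjusted p = 0.0461). RBM7 was at -0.10 (log2, SE 0.079, adjusted p = 0.277) in LNCaP, -0.34 (log2, SE 0.063, adjusted p = 0.000372) in LNCaP95 and 0.13 (log2, SE 0.075, adjusted p = 0.213) in the 22Rv1 line. SRM also has close neighbours on its strand, EXOSC10 6.6 kb upstream and MASP2 7.4 kb downstream. MASP2 had 1 count in each LNCaP CTRL sh library, 18, 18 and 19 with CPSF1 sh1 and 25, 28 and 25 with CPSF1 sh2. It had 6, 1 and 6 counts with CTRL sh in LNCaP95 cells, then 43, 29 and 28, then 43, 61 and 44, and at most 3 counts in any 22Rv1 library. EXOSC10 was at 0.12 (log2, SE 0.044, adjusted p = 0.029) in LNCaP, -0.070 (log2, SE 0.042, adjusted p = 0.154) in LNCaP95 and 0.058 (log2, SE 0.041, adjusted p = 0.322) in the 22Rv1 line.

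The 5 genes whose pattern was most like that of NNMT were ADCY10 (Pearson r = 0.976), AC027307.3 (0.968), MSH4 (0.968), WDR96 (0.962) and PARP6 (0.957). The likeness was taken over the 27 libraries on log2(CPM + 1), among 13472 genes above 2 CPM in at least 3 libraries, and it is a description over libraries that share groups. They were picked for likeness to NNMT, with its 22Rv1 values included, so a rise with CPSF1 sh follows from the choice and is no finding. Each was lower in every CTRL sh library than in any CPSF1 sh library of its line. ADCY10, for example, was 0.413 ± 0.0594 CPM with CTRL sh (SD, n = 3) and 25.4 ± 7.49 with CPSF1 sh (n = 6) in LNCaP. It was 0.5 ± 0.146 and 11.2 ± 4.61 CPM in LNCaP95, and 0.913 ± 0.344 and 16.8 ± 2.199 in the 22Rv1 line.

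SAT1 separated the hairpins in all 3 lines, being lower with CPSF1 sh2, with differences from CPSF1 sh1 of -0.26 (log2, SE 0.047, adjusted p = 0.000895) in LNCaP, -0.36 (log2, SE 0.057, adjusted p = 8.25e-05) in LNCaP95 and -0.36 (log2, SE 0.074, adjusted p = 0.0067) in the 22Rv1 line. In LNCaP and 22Rv1 cells that left CPSF1 sh1 at 0.29 and 0.39 above CTRL sh and CPSF1 sh2 at 0.030 and 0.028. CPSF1 itself differed between the hairpins by -0.14 (log2, SE 0.053, adjusted p = 0.0773) in LNCaP and 0.067 (log2, SE 0.069, adjusted p = 0.578) in 22Rv1 cells, and by less than 0.01 in LNCaP95 cells. NNMT went the other way. It was higher with CPSF1 sh2 by 0.50 (log2, SE 0.11, adjusted p = 0.00606) in LNCaP and 0.99 (log2, SE 0.11, adjusted p = 6.61e-07) in LNCaP95 cells (filterByExpr fits), where 5.6% and 16.2% of genes were higher. In 22Rv1 cells it was 0.19 higher (SE 0.12). ODC1 was higher with CPSF1 sh2 in LNCaP95 cells (log2 difference 0.17, SE 0.041, adjusted p = 0.00315) and in 22Rv1 cells (log2 difference 0.12, SE 0.036, adjusted p = 0.0431). SRM was higher with CPSF1 sh2 in LNCaP95 cells (log2 difference 0.23, SE 0.049, adjusted p = 0.00121), and AZIN1 in 22Rv1 cells (log2 difference 0.17, SE 0.044, adjusted p = 0.0243). AMD1 was lower with CPSF1 sh2 in LNCaP cells (log2 difference -0.11, SE 0.036, adjusted p = 0.0449). Of the 9 members, 2, 3 and 3 differed between the hairpins in LNCaP, LNCaP95 and 22Rv1 cells, where 14.8%, 34.1% and 11.3% of genes did. Several of these calls rested on single libraries. The ODC1 difference in 22Rv1 cells missed the threshold without any 1 of CPSF1 sh1 replicates 1 and 2 and CPSF1 sh2 replicates 1, 2 and 3 (adjusted p from 0.0675 to 0.141), with DESeq2 (0.0614) and with a replicate block (0.0579), the AZIN1 difference without CPSF1 sh1 replicate 2 or CPSF1 sh2 replicate 1 or 3 (0.0697 to 0.113), and the AMD1 difference in LNCaP cells without CPSF1 sh1 replicate 2 or 3 or CPSF1 sh2 replicate 1 or 2 (0.089 to 0.181) and with library size alone (0.073). Some differences passed the threshold when 1 library was left out, namely ODC1 in LNCaP cells without CPSF1 sh1 replicate 1 (adjusted p = 0.0419), OAZ1 and MAT2A in LNCaP95 cells without CPSF1 sh1 replicate 3 (0.0296 and 0.0248), and in 22Rv1 cells MAT2A without CPSF1 sh1 replicate 1 (0.0466) and SRM without replicate 3 (0.00674). With library size alone ODC1 (0.0314) and MAT2A (0.0404) passed in LNCaP cells. With a replicate block ODC1 (0.0215) and MAT2A (0.0234) passed in LNCaP cells and MAT2A (0.019) in LNCaP95 cells. The SAT1 differences held when any 1 library was left out.

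**Figure D4:**
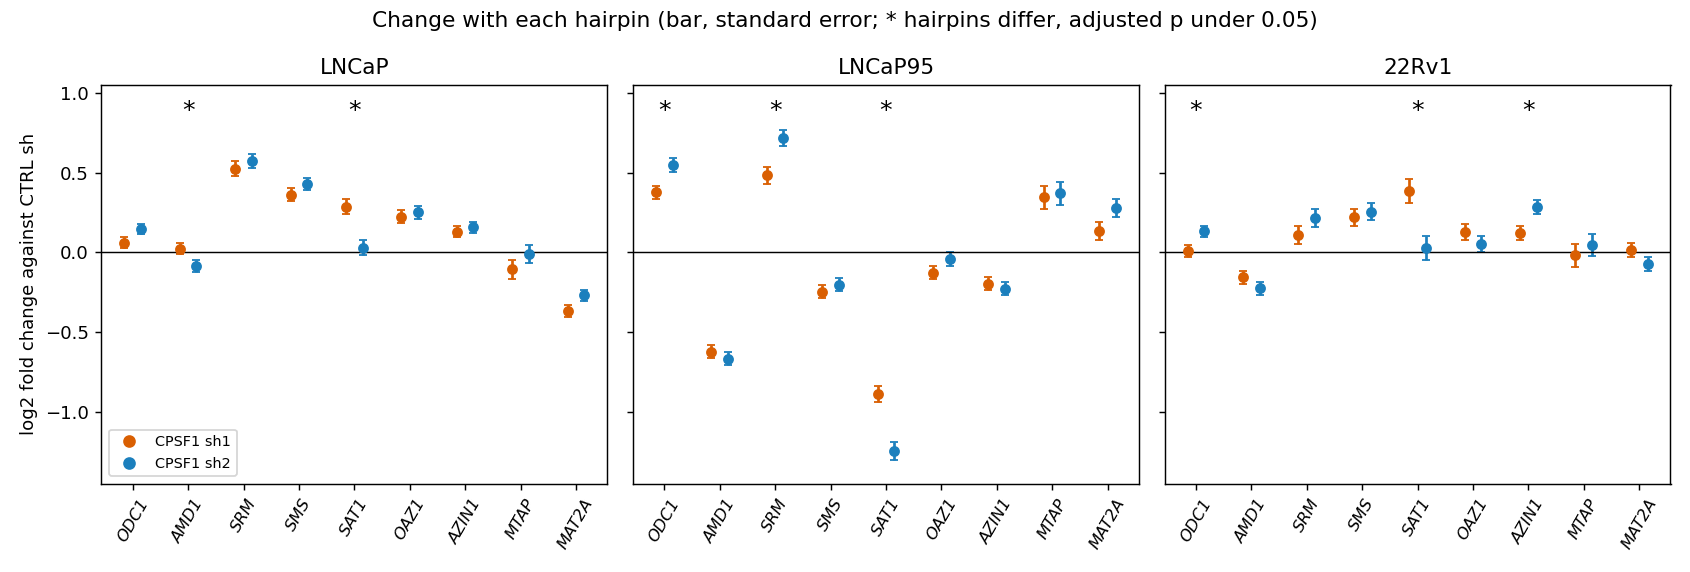
Log2 change of 9 genes against CTRL sh with CPSF1 sh1 and with CPSF1 sh2, with the standard error as bars, in the 3 lines; an asterisk marks an adjusted p under 0.05 between the hairpins. SAT1 carries an asterisk in each line, and CPSF1 sh2 lies below CPSF1 sh1 there by 0.26 to 0.36.

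The knockdown changes were then compared between lines as interactions in 1 edgeR fit of 27 libraries over 10317 genes. The change in LNCaP95 cells differed from that in LNCaP cells for 8 of the 9 members, where 50.9% of all genes differed, and from that in 22Rv1 cells for 9, where 53.7% did. Between 22Rv1 and LNCaP cells it differed for 3, beside 40.4% of genes. SAT1 gave the largest difference, -1.20 (log2, SE 0.14, adjusted p = 3.48e-08) for LNCaP95 minus LNCaP and 1.27 (log2, SE 0.15, adjusted p = 1.01e-07) for 22Rv1 minus LNCaP95. SMS and AMD1 came next for LNCaP95 minus LNCaP, with -0.60 (log2, SE 0.055, adjusted p = 3.18e-10) and -0.60 (log2, SE 0.061, adjusted p = 3.69e-09). MAT2A, which fell in LNCaP cells and whose rise in LNCaP95 cells rested on CTRL sh replicate 1, gave 0.54 (log2, SE 0.079, adjusted p = 1.63e-06). SRM was the member whose change was not shown to differ between LNCaP95 and LNCaP cells (0.069 (log2, SE 0.093, adjusted p = 0.554)), and it differed for 22Rv1 minus LNCaP (log2 difference -0.37, SE 0.095, adjusted p = 0.00221).

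More of the other listed genes of these pathways were called lower than higher in each line. Of 46 listed genes outside the set, 45 were in the table, and 35, 35 and 38 were tested in LNCaP, LNCaP95 and 22Rv1 cells. There 8, 8 and 1 were higher, beside 31.1%, 33.2% and 12.7% of all genes. Lower were 15, 16 and 12, beside 31%, 33.7% and 14.3% of all genes. The median log2 changes were -0.0495, -0.118 and -0.108. The 12 lower in 22Rv1 cells became 6, 7 and 5 without CTRL sh replicate 1, 2 and 3, and the 1 higher became 2 without CPSF1 sh1 replicate 3. The fits of all lines shared 33 genes of the list, and 3 of them were lower in each, CTH, DHPS and MTR, and none was higher in each, while 506 and 397 of 10317 genes were so over the table. CTH, the cystathionine lyase that carries sulfur from the methionine cycle to cysteine, changed by -0.57 (log2, SE 0.10, adjusted p = 0.00021) in LNCaP, -1.39 (log2, SE 0.17, adjusted p = 1.36e-05) in LNCaP95 and -0.63 (log2, SE 0.15, adjusted p = 0.00739) in the 22Rv1 line. MTR, methionine synthase, changed by -0.59 (log2, SE 0.053, adjusted p = 2.48e-07), -0.49 (log2, SE 0.082, adjusted p = 0.000166) and -0.24 (log2, SE 0.070, adjusted p = 0.0197) in the same order.

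Hypusination, the use of spermidine to modify the translation factor eIF5A, had members on both sides. DHPS, which transfers the spermidine part, changed by -0.67 (log2, SE 0.038, adjusted p = 2.88e-09) in LNCaP, -0.89 (log2, SE 0.072, adjusted p = 7.26e-07) in LNCaP95 and -0.24 (log2, SE 0.059, adjusted p = 0.00873) in the 22Rv1 line. DOHH, which completes the modification, rose in LNCaP cells (log2 difference 0.80, SE 0.070, adjusted p = 1.86e-07) and in LNCaP95 cells (log2 difference 0.28, SE 0.11, adjusted p = 0.0478), and EIF5A rose in both by 0.36 (adjusted p = 1.24e-07) and 0.41 (adjusted p = 0.000363). EIF5A2 rose in LNCaP95 cells by 0.66 (adjusted p = 0.000268). In 22Rv1 cells these 3 genes did not pass the test.

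Of 5 tested genes of polyamine interconversion and antizyme, 3 fell and 1 rose in LNCaP and in LNCaP95 cells, where 31% and 33.7% of all genes fell and 31.1% and 33.2% rose, and the 5 had adjusted p from 0.236 to 0.753 (edgeR) in the 22Rv1 line, where 26.9% of all genes passed. Their log2 changes in LNCaP and LNCaP95 cells were -0.38 (adjusted p = 7.12e-06) and -0.36 (adjusted p = 0.000252) for OAZ2, another antizyme, -0.50 (adjusted p = 0.0069) and -0.62 (adjusted p = 0.000187) for SMOX, spermine oxidase, and -0.18 (adjusted p = 0.00728) and -0.53 (adjusted p = 5.87e-06) for SAT2. OAZ3 was the one that rose, with 0.40 (adjusted p = 0.00606) and 0.44 (adjusted p = 0.0269). In transport and arginine supply, SLC3A2, the heavy chain of amino acid exchangers, fell in LNCaP95 cells (log2 difference -0.92, SE 0.049, adjusted p = 3.06e-08), and SLC18B1, a vesicular polyamine transporter, fell in LNCaP cells (log2 difference -0.77, SE 0.097, adjusted p = 8.18e-06). GNMT, which uses S-adenosylmethionine to methylate glycine, rose in LNCaP cells (log2 difference 0.64, SE 0.18, adjusted p = 0.00615) and fell in LNCaP95 cells (log2 difference -0.83, SE 0.12, adjusted p = 6.37e-05). AHCYL2, a relative of the hydrolase AHCY, fell in 22Rv1 cells (log2 difference -0.29, SE 0.075, adjusted p = 0.0105).

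NAMPT, which recycles the nicotinamide that NNMT would methylate, rose in LNCaP cells (log2 difference 0.37, SE 0.043, adjusted p = 3.11e-06) and in 22Rv1 cells (log2 difference 0.35, SE 0.075, adjusted p = 0.0039) and fell in LNCaP95 cells (log2 difference -0.63, SE 0.042, adjusted p = 1.54e-07). Among the enzymes of the next step to NAD, NMNAT1 rose in LNCaP95 cells by 0.68 (adjusted p = 1e-05) and in LNCaP cells by 0.27 (adjusted p = 0.000589). NMNAT2 rose in LNCaP95 cells by 0.49 (adjusted p = 2.48e-05) and fell in 22Rv1 cells, with -0.51 (adjusted p = 1.01e-05), and NMNAT3 fell in LNCaP cells, with -0.77 (adjusted p = 0.000202).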

How the data were processed

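Total RNA of 27 cultures was made into stranded poly(A) libraries. Per the labels and the methods, the authors used HISAT2 2.1.0 for alignment to GRCh37 (hg19), and featureCounts, set to reverse strand (Subread 2.0.3 in the submitters' processing notes, while the methods give another version), for fragments over the exons of Ensembl genes. The deposited table holds raw counts of 20268 genes with their coordinates and exon lengths, and all count columns matched a sample (0 left over). How reads shared with near-identical copies, such as processed pseudogenes of AMD1, SMS or OAZ1, were treated is not given in the sources used here.

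Each line had its own fit in edgeR 4.0.16 (R 4.3.3), with the study's filter (genes above 2 CPM in all 9 libraries), quasi-likelihood F-test (legacy), Benjamini-Hochberg adjustment over all genes tested and threshold (0.05), and with TMM scaling. Hairpins were compared in 3-group fits, lines by interaction in 1 fit of 27 libraries, and control levels in a fit of 9 libraries. SE is that of the log2 change, derived from the test as the size of the change divided by the square root of its F statistic. The members, lists and tests were chosen with earlier results of these data known. Named pathway genes were, per line, the 3 largest called rises and falls, plus those that describe a subgroup. Alternatives were RLE or library size scaling, DESeq2 1.42.0, edgeR 4 quasi-likelihood, filterByExpr, no filter, hairpins apart or alone, a replicate block and leaving out each library; filterByExpr as the base for NNMT was added after seeing the data. On simulated counts of 11059, 11112 and 11673 genes in LNCaP, LNCaP95 and 22Rv1 cells, 85 of 99 genes changed by 0.5 on the log2 scale were recovered in each comparison of CPSF1 sh with CTRL sh, and 98 of 98, 96 of 96 and 96 of 96 changed by 1; 21 of 204, 7 of 188 and 6 of 187 calls were false. The share of false calls in LNCaP cells was above the threshold of 0.05. Few genes were changed in the simulation, evenly up and down. In the data, 62.1% of genes passed in LNCaP and 66.9% in LNCaP95 cells, a setting that the simulation does not cover. The biological coefficient of variation was 4.95%, 7.09% and 6.08% in LNCaP, LNCaP95 and 22Rv1 cells. Replicates are called biological in the methods, but no separate infections are described, so p-values measure the spread between these cultures.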

Additional observations from a re-analysis of the deposited data

Results flagged for a closer look

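The knockdown change of a member differed between 2 lines, by the interaction test of edgeR with an adjusted p under 0.05, in 20 of 27 comparisons of 9 members and 3 pairs of lines. Of all 10317 genes, 50.9% differed for LNCaP95 minus LNCaP, 40.4% for 22Rv1 minus LNCaP and 53.7% for 22Rv1 minus LNCaP95. The values for members are differences of log2 changes.

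For LNCaP95 minus LNCaP they were 0.378 for ODC1, 0.54 for MAT2A and 0.433 for MTAP, where the change was higher in LNCaP95 cells. They were -0.597 for AMD1, -0.604 for SMS, -1.2 for SAT1, -0.337 for AZIN1 and -0.303 for OAZ1, where it was lower. SMS and AZIN1 rose in one of these lines and fell in the other. MAT2A fell in LNCaP cells, and its rise in LNCaP95 cells rested on CTRL sh replicate 1.

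For 22Rv1 minus LNCaP they were -0.375 for SRM, 0.301 for MAT2A and -0.147 for SMS. The SMS difference missed the threshold when any 1 of 7 libraries was left out, with an adjusted p of 0.056 to 0.126, and with a replicate block (0.0548). These libraries were CTRL sh replicates 1 and 2 and CPSF1 sh2 replicates 1 and 2 of LNCaP, and CTRL sh replicates 2 and 3 and CPSF1 sh1 replicate 2 of 22Rv1 cells. The AMD1 difference, -0.15 (adjusted p = 0.0555), passed with DESeq2 (0.0471) and when any 1 of LNCaP CTRL sh replicate 3, LNCaP CPSF1 sh2 replicates 1 and 2, 22Rv1 CTRL sh replicate 1 and 22Rv1 CPSF1 sh1 replicate 1 was left out (0.0281 to 0.0474). The OAZ1 difference, -0.13 (adjusted p = 0.118), passed without CPSF1 sh1 replicate 3 of 22Rv1 cells (0.026).

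For 22Rv1 minus LNCaP95 they were -0.444 for SRM, -0.397 for ODC1, -0.24 for MAT2A and -0.348 for MTAP on one side. On the other they were 0.449 for AMD1, 0.457 for SMS, 1.27 for SAT1, 0.413 for AZIN1 and 0.171 for OAZ1. The MAT2A difference was -0.16 (adjusted p = 0.0927) without CTRL sh replicate 1 of LNCaP95 cells, the library with the lowest MAT2A level of its group. The OAZ1 difference missed the threshold with library size alone (0.098, adjusted p = 0.195). It also did so without any 1 of CTRL sh replicates 1 and 3 and CPSF1 sh1 replicates 1 and 2 of LNCaP95 cells or CTRL sh replicates 1 and 2 of 22Rv1 cells (adjusted p from 0.0509 to 0.0885).

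Single outlying values within the groups of 3 libraries were not tested.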

How the results depend on the processing

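The called changes of SRM, SMS, OAZ1, AZIN1 and MAT2A in LNCaP, of ODC1, AMD1, SRM, SMS, SAT1, AZIN1 and MTAP in LNCaP95 and of AMD1 and SMS in 22Rv1 cells kept their direction and passed the threshold under each alternative that was run. NNMT did so too, over 2.72 to 3.02 in LNCaP and 3.08 to 3.34 in LNCaP95 cells. Fewer alternatives were run for NNMT than for the other members, and a hairpin alone was not among them. With CPSF1 sh2 alone, 2 members in place of 1 were lower in LNCaP cells (AMD1 added), and 4 in place of 2 higher in 22Rv1 cells (ODC1 and SRM added). With the hairpins as separate groups, 4 were also higher in 22Rv1 cells (SRM and SAT1 added). Leaving out 1 library gave 4 to 5 members higher and 1 lower in LNCaP, 3 to 4 and 4 in LNCaP95, and 1 to 3 and 1 in 22Rv1 cells, the 1 higher being without CTRL sh replicate 1 or 3. It gave 1 to 3, 3 to 5 and 1 to 4 members that differed between hairpins, and 8, 2 to 4 and 7 to 9 between lines. It gave 1 to 2 pathway genes higher and 5 to 16 lower in 22Rv1 cells.

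The main fits did not pair the libraries by replicate number. Deviations of same-numbered libraries correlated from -0.0569 to 0.258 in LNCaP, -0.246 to 0.294 in LNCaP95 and -0.121 to 0.205 in 22Rv1 cells. In the same order, 3, 3 and 1 of 9 pairs were over 0.1, and 6, 5 and 3 of 9 libraries correlated best with their own number. With the replicate block, 6804, 7080 and 2638 genes were called in place of 6892, 7450 and 3160, and 4 members in place of 2 differed between the hairpins in LNCaP cells, with ODC1 (adjusted p = 0.0215) and MAT2A (0.0234) added. MAT2A was added in LNCaP95 cells (0.019), and in 22Rv1 cells ODC1 was lost (0.0579).

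Values that changed sign were small and uncalled, and the cause was not tested. With CPSF1 sh1 alone these were AMD1 in LNCaP (0.022), MTAP (-0.011) and MAT2A in 22Rv1 cells (0.022), and with library size alone OAZ1 in LNCaP95 (0.0030) and between 22Rv1 and LNCaP95 controls (0.045). Without 1 library the rest ranged, between hairpins, from -0.0026 to 0.10 for SRM and -0.0039 to 0.083 for OAZ1 in LNCaP, -0.075 to 0.0064 for AMD1, -0.0034 to 0.076 for MTAP and -0.052 to 0.0011 for AZIN1 in LNCaP95, and -0.0040 to 0.067 for SMS and -0.0014 to 0.12 for MTAP in 22Rv1 cells. MTAP ranged from -0.024 to 0.075 with knockdown in 22Rv1 cells. Between controls SAT1 ranged from -0.062 to 0.023 (LNCaP95 minus LNCaP), OAZ1 from -0.041 to 0.013 (22Rv1 minus LNCaP95) and MTAP from -0.022 to 0.078 (22Rv1 minus LNCaP). Depth limits the values of NNMT, PHEX and MASP2, with 0 to 35 counts in their CTRL sh libraries outside PHEX in 22Rv1 cells.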

Other observations

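Among the nearest genes on the same strand as other members, PHEX and AMH are given here, chosen after their values were seen. Their adjusted p-values do not allow for that choice. The neighbours did not all rise. Mean GTF3C6, downstream of AMD1, went from 107 CPM with CTRL sh to 92.1 with CPSF1 sh in LNCaP95 and from 129.8 to 108.1 in 22Rv1 cells. MBTPS2, upstream of SMS, went from 73.6 to 61.1 in LNCaP and from 97.2 to 82.4 in LNCaP95 cells. KLF10, downstream of AZIN1, went from 55.7 to 43.4 in LNCaP and from 47.0 to 66.4 in LNCaP95 cells. The nearest downstream genes of ODC1, SAT1 and OAZ1 (CYS1, CXorf58 and TMPRSS9) had at most 7 counts in any library of any arm. So did RP11-145E5.5, which overlaps MTAP and ends beyond it. PHEX, an endopeptidase gene of bone mineral metabolism that starts 24.8 kb downstream of SMS on the same strand, had 1 count in each LNCaP CTRL sh library and 3 to 20 counts in the CPSF1 sh libraries. In LNCaP95 cells it had 1, 0 and 0 counts with CTRL sh, 14, 22 and 11 with CPSF1 sh1 and 33, 23 and 26 with CPSF1 sh2. In 22Rv1 cells, where it was expressed with CTRL sh, it had 52, 58 and 51 counts, then 48, 57 and 44, then 65, 67 and 54, and its change was 0.098 (log2, SE 0.16, adjusted p = 0.691 in edgeR).

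AMH, the gene of anti-Mullerian hormone, ends 17.4 kb upstream of OAZ1 on the same strand. It was 3.23 ± 0.31 CPM (SD, n = 3) with CTRL sh and 9.28 ± 2.59 (n = 6) with CPSF1 sh in LNCaP cells, and 3.37 ± 0.34 and 9.99 ± 3.94 in LNCaP95 cells. In 22Rv1 cells it was 14.2 ± 1.46 and 16.5 ± 2.49 CPM. The changes were 1.51 (SE 0.23, adjusted p = 4.51e-05 in edgeR), 1.54 (SE 0.34, adjusted p = 0.0014) and 0.21 (SE 0.12, adjusted p = 0.215). OAZ1 itself rose in the LNCaP line and did not pass the test in the others.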
